A study of Homo sapiens with 60 samples.

Results

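The transcripts described here belong to 31 genes that make, sense, move and store cholesterol, followed in HepG2, a human liver cancer cell line, 24 h after herbal extracts were added. The genes were chosen by their place in the pathway, with earlier results of these data known. They are 20 enzymes of synthesis, 4 genes of the SREBP2 control loop, 4 of sterol transfer and uptake, and 3 of storage and export. All 31 were found among the 60675 genes of the count table, and 29 passed the filter on low counts. The series set out to describe tonifying herbal medicines by the transcriptomes they give, and its 60 libraries analysed here fall into 25 groups: 1 vehicle group of 3 libraries, and 8 extracts at 3 doses each. The doses are called High (500 µg/mL), Medium (100 µg/mL) and Low (20 µg/mL) here. Water extracts were made of the formulas Sibjeondaebo-tang and Palmul-tang, and 70% ethanol extracts of Angelicae Gigantis Radix, Paeoniae Radix, Poria cocos, Atractylodis Rhizoma, Panax ginseng and Glycyrrhizae Radix (licorice root). Palmul-tang has 2 libraries per dose, Angelica and Paeonia 1, and every other extract 3. Vehicle cells carried 0.1% DMSO according to the sample labels, although the series text names 2%, and how much DMSO the treated wells held is not given. Vehicle and the extracts carry different set codes in the sample descriptions (code C1 holds the vehicle, 8 both formulas, 9 Poria with Atractylodis, 10 Glycyrrhiza with ginseng, and 11 Angelica with Paeonia), so a difference from vehicle cannot be told apart from a difference between codes. High against Low of the same extract stays within 1 code, and the account below rests mainly on that comparison.

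Cells build cholesterol from acetyl-CoA through mevalonate, farnesyl diphosphate, squalene and lanosterol, and trim lanosterol on the endoplasmic reticulum until cholesterol is left. When sterols are scarce, SCAP escorts the transcription factor SREBP2 (gene SREBF2) to the Golgi, where it is cleaved, and the released part switches on the genes of synthesis and uptake. When sterols are plentiful, INSIG proteins hold SCAP back, SOAT1 stores cholesterol as ester, and the oxysterol receptors LXR induce the exporters ABCA1 and ABCG1. The liver is the main organ of cholesterol clearance, and HepG2 cells keep this control loop.

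In the vehicle libraries the early enzymes were the most abundant members per kilobase of merged exon. HMGCS1, which condenses acetoacetyl-CoA with acetyl-CoA, stood at 128 CPM (counts scaled to the library's size) per kilobase, FDFT1 (squalene synthase) at 126 and SQLE (squalene epoxidase) at 111. The lowest tested member was PMVK (phosphomevalonate kinase), at 6.04 CPM per kilobase. NPC1, which releases cholesterol from lysosomes, stood at 10.3, SREBF2 at 26.1 and the exporter ABCA1 at 11.6. INSIG1 and ABCG1 had 0 to 2 counts in every library and were not tested. Whether their reads were absent or were assigned to no row was not tested, so nothing is said here of the level of either gene.

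Libraries held 19057227 to 33233238 counts. Replicates are samples that the labels number within a group, with no word on separate cultures, so the p-values measure the spread between these samples, which may be technical. Replicates varied by 5.62% per gene beyond counting error, by the common dispersion. The hepatocyte markers were all present, with a summed level of 45162 to 70732 CPM over the 60 libraries. PTPRC and TYROBP of the leukocyte list were at 0 in all libraries, and 6 of 8 fibroblast, 5 of 7 endothelium, 5 of 8 leukocyte and 2 of 6 biliary markers stayed under 1 CPM in every one. HepG2 is a single cell line, so the other lists are read as transcripts of these cells and not as counts of other cell types. In bulk RNA, fewer cells in a given state and less RNA per cell cannot be told apart. Adjusted p-values come from edgeR's quasi-likelihood test with Benjamini-Hochberg adjustment over 16286 genes, a gene is called when its adjusted p is under 0.05, and changes are on the log2 scale of that fit. Libraries are listed mostly for the members with the largest called changes, so doses that do not overlap there are no further support. The share of all tested genes with doses that do not overlap is not given here.

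Promoters of 4 members that were called in some comparisons are shown next as background. Sterol control acts on such stretches, and its part in the changes was not tested. RefSeq promoter windows (GRCh38.p14, 250 bases before to 50 after a start site) were found for 27 of the 31 members; ACAT2, FDFT1, SQLE and ABCG1 were not matched. The windows were searched on both strands for the sterol regulatory element TCACNCCAC, the binding sequence of SREBP2, and for CCAAT, the binding sequence of the factor NF-Y, which reads ATTGG on the other strand. The stretches are printed 5′ to 3′ on the gene's strand and end before the first base of the annotated gene, and capitals mark the matches. They lie at chr22:41832855-41833078 (SREBF2, plus strand), chr11:65111725-65111844 (TM7SF2, plus strand), chr21:46228825-46228984 (LSS, minus strand) and chr4:165327463-165327622 (MSMO1, plus strand).
SREBF2: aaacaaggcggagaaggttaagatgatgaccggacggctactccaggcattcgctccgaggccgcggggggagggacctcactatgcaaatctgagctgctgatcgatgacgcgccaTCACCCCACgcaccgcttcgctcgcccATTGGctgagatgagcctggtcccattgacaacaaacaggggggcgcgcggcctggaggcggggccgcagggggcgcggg
TM7SF2: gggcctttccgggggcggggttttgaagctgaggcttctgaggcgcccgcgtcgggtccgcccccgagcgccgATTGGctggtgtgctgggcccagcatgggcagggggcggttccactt
LSS: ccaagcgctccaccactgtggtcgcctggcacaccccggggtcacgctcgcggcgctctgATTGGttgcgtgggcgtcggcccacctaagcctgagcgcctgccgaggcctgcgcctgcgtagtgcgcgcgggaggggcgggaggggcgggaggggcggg
MSMO1: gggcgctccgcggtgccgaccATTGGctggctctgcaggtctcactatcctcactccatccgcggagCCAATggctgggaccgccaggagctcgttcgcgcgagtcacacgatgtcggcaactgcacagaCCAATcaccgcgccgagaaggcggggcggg
The SREBF2 stretch was the 1 member window with TCACNCCAC, as TCACCCCAC 133 bases before the start site, with ATTGG at 106 bases before it. That element was in 1 of 36 member windows and in 1.13% of all 35116 windows of the same length. CCAAT on either strand was in 22 of the 36 member windows (61.11%) and in 34.61% of all windows. A match is a description of letters and not of binding, and a window without one shows only that those letters are not in it.

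Glycyrrhiza at High, against its own Low dose, had higher transcripts of lysosomal release, surface uptake and several sterol ring steps. NPC1 stood 1.68-fold above Low, NPC1L1 (the sterol uptake protein of the cell surface) 1.54-fold, and CYP51A1 (lanosterol demethylase) and GGPS1 (geranylgeranyl diphosphate synthase, a branch off the main line) 1.39-fold each. In all, 18 of the 29 tested members were called, 14 higher and 4 lower, which is 62.1% of them. The background was 56.3% of all tested genes called, 28.6% higher and 27.7% lower, so the share called in either direction is near it. By direction, 48.3% of the members were higher and 13.8% lower. Their median log2 change was 0.060, beside 0.0091 for all genes. By role, 4 higher and 0 lower were called of 4 genes of transfer and uptake, 2 higher and 1 lower of 3 in the SREBP2 loop, 5 higher and 1 lower of 9 ring enzymes, 2 higher and 1 lower of 8 mevalonate and isoprenoid enzymes, 1 higher and 0 lower of 3 at squalene and ring closure, and 0 higher and 1 lower of 2 in storage and export.

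CYP51A1 was at 307, 294 and 290.2 CPM in the 3 Low libraries of Glycyrrhiza and at 417, 421 and 398 CPM in the 3 High libraries. The groups did not overlap, and the change was 0.47 (SE 0.048, adjusted p = 1.44e-11). GGPS1 went from 29.9, 30.2 and 28.6 CPM at Low to 41.9, 41.8 and 39.0 CPM at High, again without overlap, with a change of 0.47 (SE 0.060, adjusted p = 5.34e-09). This enzyme supplies the lipid that anchors small GTPases, and it was 1 of 2 mevalonate and isoprenoid enzymes that rose; the other, MVD (the decarboxylase that makes isopentenyl diphosphate), changed by 0.16 (adjusted p = 0.0467) with overlapping libraries. Of the other ring enzymes, SC5D (a sterol desaturase) rose by 0.43 (adjusted p = 1.95e-08), DHCR7 (the reductase that makes cholesterol from dehydrocholesterol) by 0.39 (adjusted p = 7.84e-10) and MSMO1 (methylsterol monooxygenase) by 0.31 (adjusted p = 4.62e-06). LBR and TM7SF2 share 1 activity, the reduction of the sterol ring after demethylation, and moved apart: LBR, which is also the lamin B receptor of the nuclear envelope, changed by -0.42 (SE 0.050, adjusted p = 1.17e-09) and TM7SF2 by 0.14 (SE 0.058, adjusted p = 0.0452). LSS, which closes squalene epoxide into lanosterol, changed by 0.12 (adjusted p = 0.0132), and HMGCS1 by -0.091 (adjusted p = 0.036). The other 10 enzymes did not pass the test: ACAT2, MVK, PMVK, IDI1, FDPS, FDFT1, SQLE, NSDHL, HSD17B7 and EBP lay between -0.10 and 0.060.

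SREBF2 itself was at 205, 200.01 and 209 CPM at Glycyrrhiza Low and 266, 268 and 251 CPM at High, with no overlap, and rose by 0.35 (SE 0.042, adjusted p = 5.91e-10). INSIG2, the retention protein that could be measured, was at 58.3, 53.0 and 54.5 CPM at Low and 42.9, 42.2 and 41.3 CPM at High, all High libraries below all Low ones, a change of -0.39 (SE 0.12, adjusted p = 0.00348). SCAP, the escort of SREBP2, rose by 0.16 (adjusted p = 0.00182). NPC1 was at 119, 111 and 114 CPM at Low and 193, 196 and 190.4 CPM at High, the largest rise among the members, 0.75 (SE 0.051, adjusted p = 4.74e-17). NPC1L1 went from 60.6, 62.7 and 60.1 CPM to 92.8, 95.7 and 93.7 CPM, a change of 0.62 (SE 0.051, adjusted p = 2.07e-14). For both genes the 2 doses stood apart in every library. STARD4, a carrier of free sterol between membranes, rose by 0.24 (adjusted p = 0.00595), and NPC2, the soluble partner of NPC1, by 0.18 (adjusted p = 0.0168). ABCA1, which exports cholesterol to apolipoproteins, was at 154, 157 and 151 CPM at Low and 128, 126 and 123 CPM at High, without overlap, a change of -0.29 (SE 0.066, adjusted p = 0.000178). SOAT1, which esterifies cholesterol, was not called, at -0.073 (adjusted p = 0.193). The summed hepatocyte markers were lower at Glycyrrhiza High, 45162 to 47793 CPM against 60703 to 61643 CPM at Low, and the other marker lists were lower too, each without overlap: fibroblast 55.1 to 57.9 against 65.4 to 69.6, endothelium 1.75 to 2.33 against 3.18 to 3.46, leukocyte 976 to 1054 against 1264 to 1366 and biliary 728 to 748 against 805 to 850.3. The mitochondrial share of counts was 17.8 to 18.4% against 15.1 to 17.0%, and the part of the markers in these changes was not tested. With mitochondrial genes left out, 17 members were called, beside 56.4% of all genes in that fit. Without High replicate 3 the calls fell to 13: HMGCS1 was then at -0.067 (adjusted p = 0.176), MVD at 0.072 (adjusted p = 0.437), LSS at 0.079 (adjusted p = 0.148), TM7SF2 at 0.089 (adjusted p = 0.246) and NPC2 at 0.12 (adjusted p = 0.157). High replicate 1 and Low replicates 1, 2 and 3, each left out alone, also ended between 1 and 4 of these same calls.

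**Figure D1:**
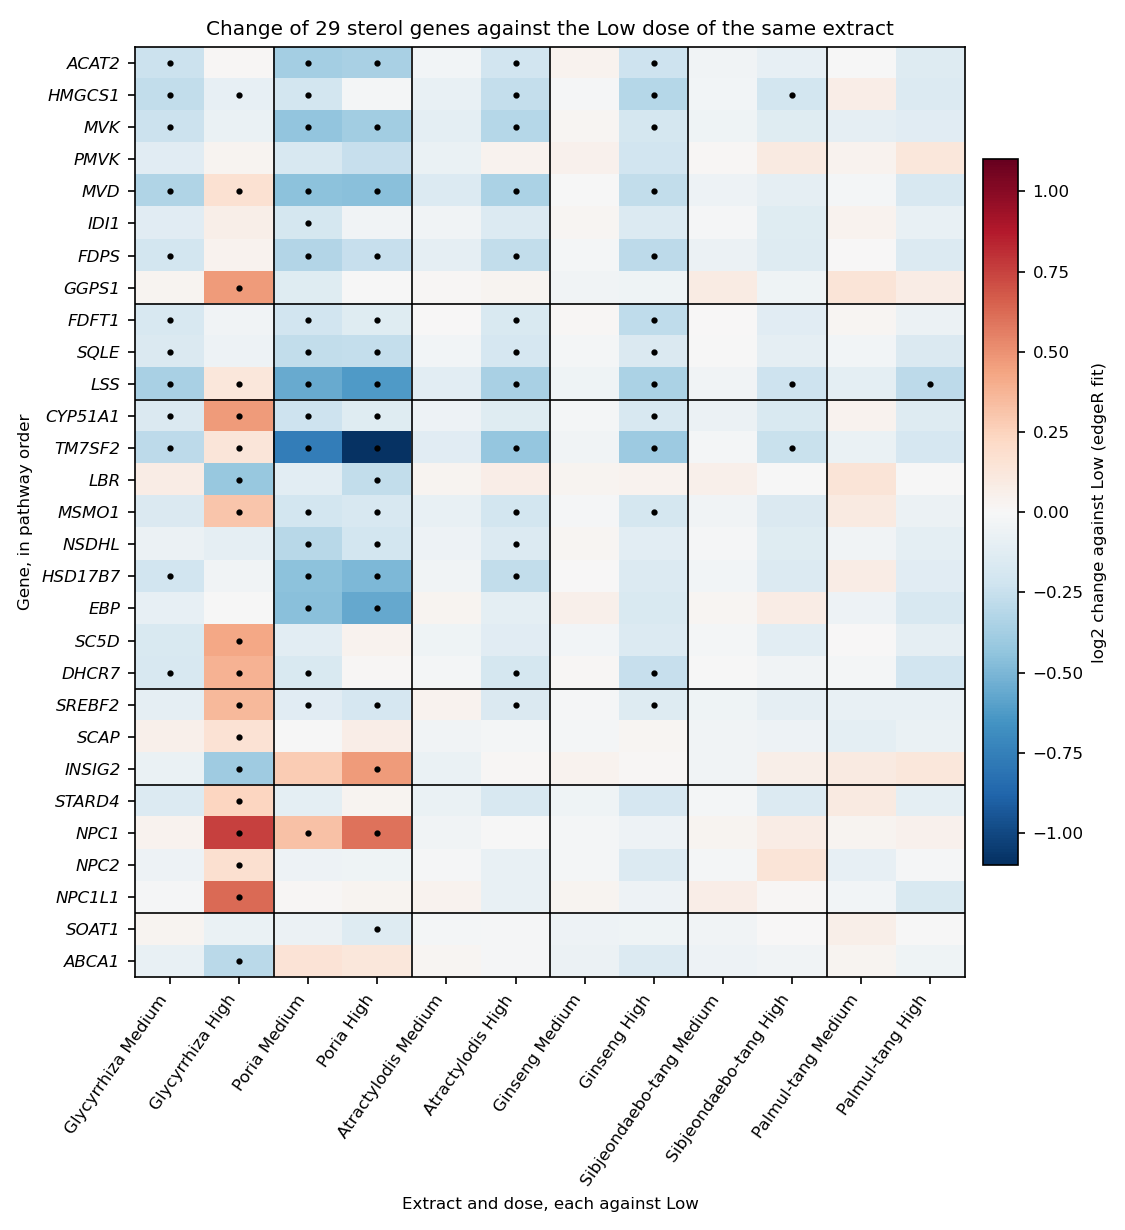
Log2 change of the 29 tested members (rows, in pathway order, with lines between the role groups) at Medium and at High against Low of the same extract (columns), with a dot where the adjusted p was under 0.05. The Poria columns are mostly blue with the darkest cell at TM7SF2 High (-1.09), the Glycyrrhiza High column holds 14 called rises, and the Medium columns of Atractylodis, ginseng and the formulas hold no dot.

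Poria at High had lower transcripts of most synthesis enzymes than at Low. TM7SF2, the sterol ring reductase, was at 0.471 of its Low level, LSS at 0.648 and EBP (a sterol isomerase) at 0.677, while NPC1 was 1.51-fold higher. Of the 29 members 2 higher and 16 lower were called, so that 55.2% fell and 6.9% rose. The background was 38.5% of all tested genes called, 20% higher and 18.4% lower. Their median log2 change was -0.14 and that of the 20 enzymes -0.25, beside -0.0033 for all genes. The enzymes called were all lower: 4 of 8 in the mevalonate and isoprenoid steps, 3 of 3 at squalene and ring closure, and 7 of 9 in the ring steps.

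TM7SF2 was at 63.9, 68.1 and 75.3 CPM in the Poria Low libraries, 41.7, 38.9 and 41.7 CPM at Medium and 32.3, 32.4 and 32.9 CPM at High. The 3 doses did not overlap, and High against Low gave -1.09 (SE 0.063, adjusted p = 1.04e-18), the largest change of any member in any High against Low comparison. TM7SF2 (chr11:65111845-65116384, GRCh38) overlaps VPS51 on the same strand, so reads could be split between them; VPS51 changed by -0.31 (adjusted p = 0.000289). LSS was at 230.1, 245 and 242 CPM at Low and 161, 152 and 152 CPM at High, without overlap, -0.63 (SE 0.044, adjusted p = 5.08e-16). EBP was at 102, 108 and 139 CPM at Low, with replicate 3 the highest, and at 77.7, 84.1 and 74.1 CPM at High, -0.56 (SE 0.068, adjusted p = 4.31e-09). The remaining ring enzymes that fell were HSD17B7, -0.49 (adjusted p = 1.13e-09), LBR, -0.27 (adjusted p = 2.2e-05), NSDHL, -0.20 (adjusted p = 0.000614), MSMO1, -0.17 (adjusted p = 0.00992), and CYP51A1, -0.13 (adjusted p = 0.0318). HSD17B7 has a transcribed pseudogene copy, HSD17B7P2, and the counting could split reads between them; the copy was at -0.24 (adjusted p = 0.116). DHCR7 and SC5D, which end the pathway, did not pass the test, at 0.015 and 0.039.

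Earlier in the pathway, 6 transcripts were lower at Poria High. MVD changed by -0.46 (adjusted p = 1.41e-06), MVK (mevalonate kinase) by -0.38 (adjusted p = 5.99e-07), ACAT2 (the thiolase that makes acetoacetyl-CoA) by -0.36 (adjusted p = 2.73e-07), SQLE by -0.26 (adjusted p = 2.73e-06), FDPS (farnesyl diphosphate synthase) by -0.25 (adjusted p = 0.000102) and FDFT1 by -0.13 (adjusted p = 0.0142). HMGCS1, IDI1, PMVK and GGPS1 did not pass, at -0.023, -0.037, -0.25 and -0.0037. MVK and its opposite-strand neighbour MMAB overlap in the annotation; MMAB changed by -0.72 (adjusted p = 5.79e-12). ACAT2 overlaps TCP1, GGPS1 overlaps ARID4B and NPC2 overlaps ISCA2, so their counts carry the same uncertainty. SREBF2 was at 198, 205 and 191 CPM at Low and 179, 168 and 178 CPM at High, without overlap, -0.18 (SE 0.042, adjusted p = 0.000505). INSIG2 was at 45.6, 49.7 and 56.8 CPM at Low and 54.2, 74.7 and 80.5 CPM at High, so that 1 High library lay inside the Low range, and rose by 0.46 (SE 0.12, adjusted p = 0.00115). SCAP did not pass, at 0.077. NPC1 was at 97.6, 110.1 and 95.4 CPM at Low and 139, 164 and 156 CPM at High, all High libraries above all Low ones, 0.60 (SE 0.052, adjusted p = 5.99e-13). NPC2, NPC1L1 and STARD4, the other carriers, lay between -0.046 and 0.033 and were not called. SOAT1 was lower, at -0.14 (adjusted p = 0.0183). ABCA1 was at 146, 166 and 131 CPM at Low and 151, 161 and 173 CPM at High, overlapping, 0.13 (SE 0.067, adjusted p = 0.127); without Low replicate 2 it passed at 0.22 (adjusted p = 0.0102).

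At Poria High the mitochondrial share of counts was 19.7 to 22.3% against 15.8 to 17.5% at Low. The count of members called was again 18 with mitochondrial genes left out, beside 38.4% of all genes in that fit. The summed hepatocyte markers were 68185 to 70732 CPM against 60856 to 64196 CPM, the leukocyte list, carried by LYZ, 1878 to 1977 against 1212 to 1328, and the biliary list 1083 to 1298 against 636 to 712 CPM. The fibroblast list was lower, 45.6 to 47.0 against 68.3 to 72.3 CPM, and the endothelium list 2.17 to 2.46 against 2.69 to 3.23 CPM. None of these 5 lists overlapped between the doses, and their part in these changes was not tested. Of the 18 calls, 14 held whichever library was left out. CYP51A1 was lost without High replicate 1, -0.095 (adjusted p = 0.179), Low replicate 2, -0.10 (adjusted p = 0.129), or Low replicate 3, -0.12 (adjusted p = 0.0864). MSMO1 was lost without High replicate 1, -0.11 (adjusted p = 0.145), or Low replicate 2, -0.14 (adjusted p = 0.0713), SOAT1 without the same libraries, -0.077 (adjusted p = 0.249) and -0.084 (adjusted p = 0.21), and FDFT1 without High replicate 2, -0.11 (adjusted p = 0.0751), or Low replicate 3, -0.053 (adjusted p = 0.342).

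**Figure D2:**
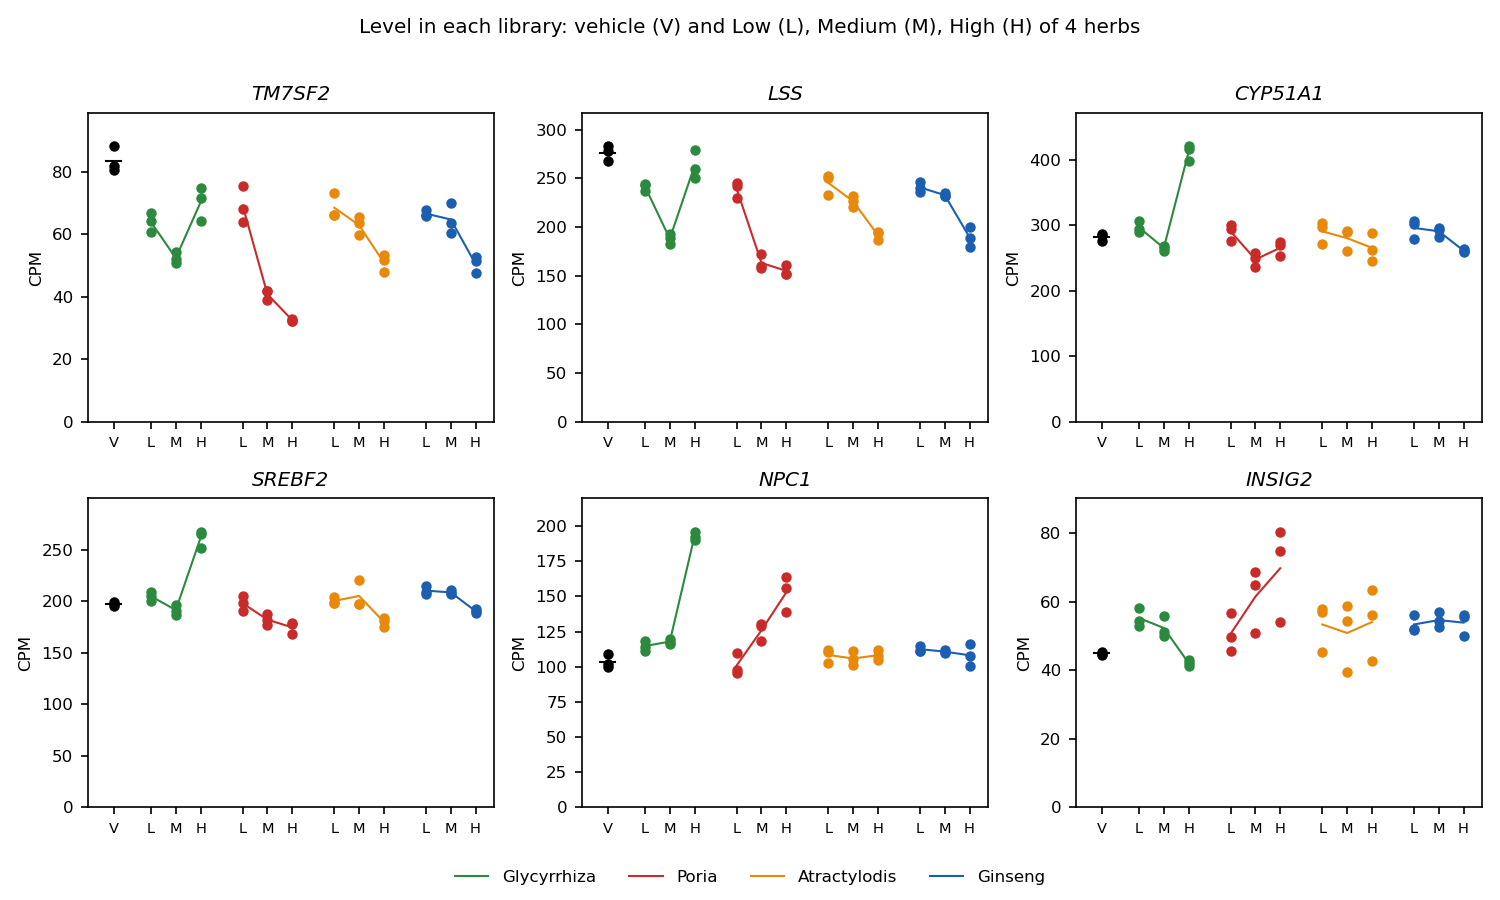
CPM of 6 members in every library of vehicle (V) and of the Low (L), Medium (M) and High (H) doses of Glycyrrhiza, Poria, Atractylodis and ginseng; points are libraries, black bars the vehicle mean and lines join the means of the doses. TM7SF2 runs down to 32.3 to 32.9 CPM at Poria High, and CYP51A1, SREBF2 and NPC1 are highest at Glycyrrhiza High.

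The dose effects of Poria and Glycyrrhiza, which share no library, were set against each other by testing the difference of the 2 High against Low changes. It passed for 19 of the 29 members, beside 45.6% of all tested genes called, 23.7% higher and 21.9% lower; 2 higher and 17 lower in Poria relative to Glycyrrhiza. TM7SF2 had the largest difference, -1.22 (SE 0.086, adjusted p = 4.05e-16), followed by INSIG2 in the other direction, 0.85 (SE 0.16, adjusted p = 2.59e-05), and LSS, -0.75 (SE 0.061, adjusted p = 4.73e-14). CYP51A1 differed by -0.60 (adjusted p = 6.36e-10), NPC1L1 by -0.59 (adjusted p = 7.2e-09), SREBF2 by -0.53 (adjusted p = 2.78e-10) and ABCA1 by 0.42 (adjusted p = 0.000226). For 7 members each extract's own change was called and the signs were opposite: MVD, LSS, CYP51A1, TM7SF2, MSMO1 and SREBF2 were lower at Poria High and higher at Glycyrrhiza High, and INSIG2 the reverse. NPC1 rose in both, and the difference between its 2 changes did not pass, -0.15 with an unadjusted 95% interval of -0.30 to -0.0040 (adjusted p = 0.086). LBR fell in both, with a difference of 0.14 and an interval of -0.0029 to 0.29. RMC1 overlaps NPC1 on the opposite strand and also rose in both, by 0.56 (adjusted p = 3.14e-10) in Glycyrrhiza and 0.36 (adjusted p = 3.25e-05) in Poria; the strand setting of the counting is not stated, so reads of the pair cannot be told apart. NPC2 lost its call without Glycyrrhiza High replicate 3, -0.16 (adjusted p = 0.167), or any of 5 other libraries, with an adjusted p of up to 0.284; the other 18 kept theirs.

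**Figure D3:**
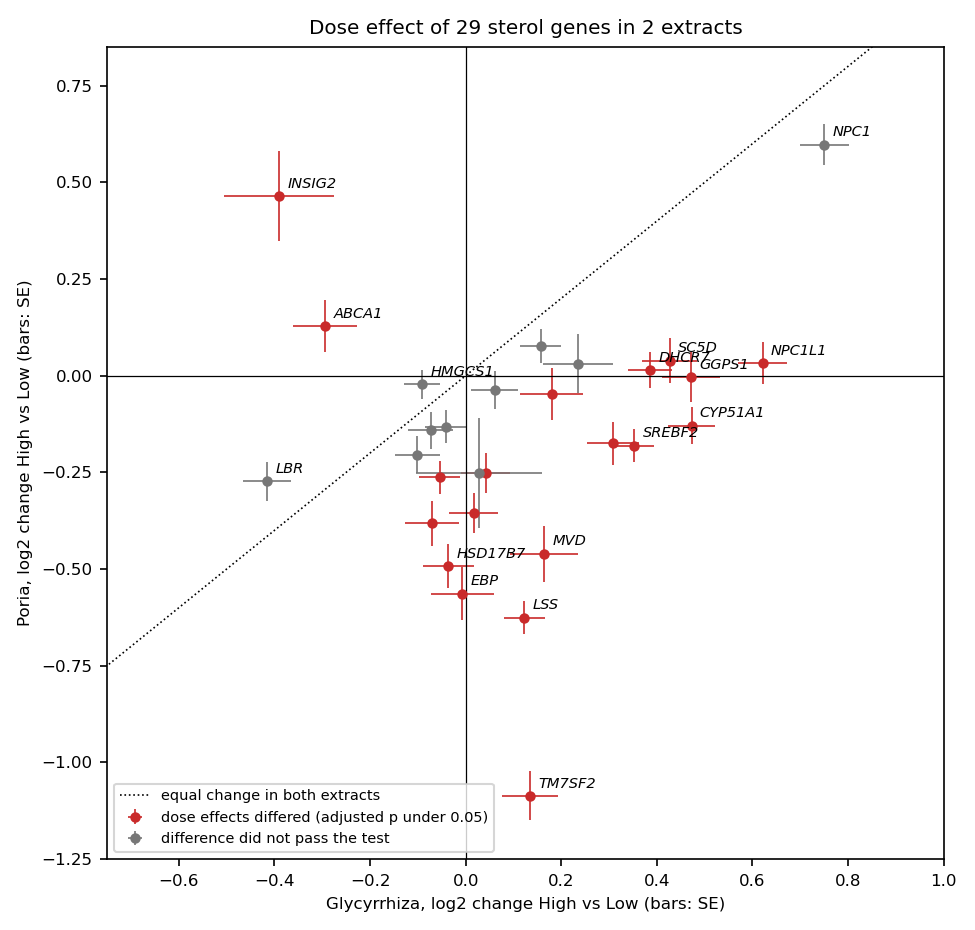
Log2 change at High against Low in Glycyrrhiza (horizontal) and Poria (vertical) for the 29 tested members; bars are the SE, red points are genes whose 2 changes differed, and the dotted line marks equal change. NPC1 and LBR lie near the line, TM7SF2 and LSS lie far below it, and INSIG2 lies above it.

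At High, members called in Atractylodis and ginseng were all lower than at Low, most of them enzymes of the early and middle pathway. In Atractylodis 14 of the 29 members were lower than at Low (48.3%), beside 6.42% of all tested genes called, 3.4% higher and 3.03% lower. In ginseng 13 were lower (44.8%), beside 5.66% of all tested genes called, 2.63% higher and 3.03% lower. The median change of the members was -0.15 in Atractylodis and -0.16 in ginseng, beside -0.0033 and -0.0031 for all genes. The 2 lists, from different libraries, shared 12 genes, which is 85.7% of the Atractylodis list and 92.3% of the ginseng list. Among all genes called lower, 51.7% of the Atractylodis calls and 51.7% of the ginseng calls were shared. Over all tested genes, 1.57% were called lower in both, beside 41.4% of the members. With the 16 that fell in Poria, Atractylodis shared 12 (75% of the Poria list and 85.7% of its own) and ginseng 11 (68.8% and 84.6%). Among all genes called lower, Atractylodis shared 11% of the Poria calls and 67.1% of its own, and ginseng 10.8% and 65.9%. Genes lower in those pairs were 2.03% and 2.0% of all tested genes, beside 41.4% and 37.9% of the members. Lower in all 3 herbs were 10 members: ACAT2, MVK, MVD, FDPS, FDFT1, SQLE, LSS, TM7SF2, MSMO1 and SREBF2. That is 34.5% of the members, beside 1.18% of all tested genes. In Atractylodis the summed biliary markers were higher at High, 771 to 869 against 667 to 689.6 CPM at Low, and the fibroblast markers lower, 58.8 to 60.4 against 70.1 to 71.9 CPM. The hepatocyte, endothelium and leukocyte lists overlapped between its doses, at 59229 to 63262 against 61626 to 65589, 2.62 to 3.50 against 2.76 to 3.43 and 1158 to 1231 against 1217 to 1289 CPM. In ginseng the biliary list was 899 to 953 against 672 to 759 CPM, the fibroblast list 57.9 to 63.6 against 69.7 to 76.1, the hepatocyte list 58521 to 60977 against 62575 to 64474, the endothelium list 2.16 to 2.86 against 2.92 to 3.44 and the leukocyte list 1089 to 1191 against 1229 to 1345, none of them overlapping between the doses. The part of these markers in the members' changes was not tested.

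TM7SF2 was at 66.0, 66.1 and 73.2 CPM at Atractylodis Low and 53.2, 51.6 and 47.9 CPM at High, -0.43 (SE 0.059, adjusted p = 2.58e-06). LSS was at 233, 251 and 252 CPM and 194, 187 and 194 CPM, -0.36 (SE 0.043, adjusted p = 1.25e-07). Neither gene's doses overlapped. MVD went from 144, 152 and 175 CPM to 114, 129 and 127 CPM, -0.35 (SE 0.072, adjusted p = 0.00128), and MVK from 62.1, 67.7 and 69.9 CPM to 56.9, 55.6 and 48.3 CPM, -0.31 (SE 0.057, adjusted p = 0.000237); here too every High library was below every Low one. The other calls of Atractylodis ran from -0.27 for HSD17B7 through FDPS, HMGCS1, ACAT2, MSMO1, DHCR7, SQLE, FDFT1 and SREBF2 to -0.15 for NSDHL. NPC1 and INSIG2 did not pass, at -0.0030 and 0.015. Of the 14 calls, 10 held in every fit that left out 1 library: FDFT1 was lost without High replicate 2 or Low replicate 3 (adjusted p up to 0.0833), SREBF2 without Low replicate 1 or High replicate 2 (up to 0.0914), MSMO1 without High replicate 1 or 3 or Low replicate 2 or 3 (up to 0.0945) and NSDHL without any High replicate or Low replicate 3 (up to 0.386). Fitted on the 6 Atractylodis libraries alone, 7 members were called, beside 2.3% of all genes in that fit.

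In ginseng TM7SF2 was at 65.7, 67.9 and 66.1 CPM at Low and 51.3, 52.5 and 47.6 CPM at High, -0.40 (SE 0.059, adjusted p = 1.09e-05), and LSS at 240.0, 246 and 236 CPM and 200.01, 188 and 180.0 CPM, -0.34 (SE 0.043, adjusted p = 2.48e-07). HMGCS1 went from 535, 545 and 536 CPM to 418, 444 and 439 CPM, -0.31 (SE 0.037, adjusted p = 7.83e-08), and FDPS from 214, 231 and 221 CPM to 189, 177 and 179.6 CPM, -0.29 (SE 0.051, adjusted p = 0.000193). All 4 genes had separate doses, but they are listed for their large called changes, so this is no further result. The other calls ran from -0.28 for FDFT1 through MVD, DHCR7, ACAT2, MSMO1, MVK, CYP51A1 and SQLE to -0.14 for SREBF2. HMGCS1, FDPS, FDFT1, LSS, TM7SF2 and DHCR7 kept their call whichever library was left out. SREBF2 lost it in all 6 such fits (adjusted p up to 0.135), and 7 members stayed called without High replicate 2 or Low replicate 2, the libraries whose loss moved the count most. The other 6 calls were lost in 1 to 4 such fits each: ACAT2 without High replicate 2 (0.0537), MVD without Low replicate 1 or 2 or High replicate 3 (up to 0.116), MVK without either of those Low libraries or High replicate 2 or 3 (up to 0.203), and SQLE, CYP51A1 and MSMO1 without High replicate 1 or 2 or Low replicate 2 or 3 (up to 0.101, 0.119 and 0.152).

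The difference of dose effects between Poria and Atractylodis, which share a set code, passed for 9 members, 4 higher and 5 lower, beside 19% of all tested genes called, 10.4% higher and 8.62% lower. TM7SF2 was lower in Poria relative to Atractylodis, -0.66 (SE 0.087, adjusted p = 1.15e-07), and EBP, LBR, LSS and HSD17B7 were lower as well, at -0.45, -0.34, -0.27 and -0.22. NPC1 was higher by 0.60 (adjusted p = 2.38e-08), as were INSIG2, HMGCS1 and DHCR7, at 0.45, 0.24 and 0.21. INSIG2 lost its call in 8 of the 12 fits that left out 1 library (adjusted p up to 0.205, without Atractylodis High replicate 1), HSD17B7 in 6 (up to 0.165, without Poria High replicate 1), and DHCR7 without Poria High replicate 2 or Atractylodis Low replicate 2 (up to 0.0981). Glycyrrhiza and ginseng, which also share a code, differed for 20 members, 18 higher and 2 lower in Glycyrrhiza, beside 45.4% of all tested genes called, 22.8% higher and 22.6% lower. The largest differences were those of NPC1, 0.81 (SE 0.073, adjusted p = 8.75e-13), NPC1L1, 0.68 (adjusted p = 1.43e-10), CYP51A1, 0.65 (adjusted p = 6.48e-11), and DHCR7, 0.64 (adjusted p = 2.82e-11). LBR and INSIG2 were the members lower in Glycyrrhiza, at -0.45 and -0.40. INSIG2 lost this call in 7 of 12 such fits (adjusted p up to 0.0872, without Glycyrrhiza Low replicate 1), and IDI1 without Glycyrrhiza High replicate 2, 0.17 (adjusted p = 0.0535).

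Few members were called with the 2 water formulas. At an unadjusted p under 0.05, 14 members were lower and 1 higher at Sibjeondaebo-tang High, beside 11% of all genes in either direction, and 10 were lower and 0 higher at Palmul-tang High, beside 9.17%. Sibjeondaebo-tang had 3 lower at High than at Low and none higher, 10.3% of the members, beside 1.06% of all tested genes called, 0.51% higher and 0.553% lower. LSS was at 236, 243 and 221 CPM at Low and 207, 195 and 195 CPM at High, -0.23 (SE 0.043, adjusted p = 0.0014), and HMGCS1 at 553, 559.8 and 570.0 CPM and 490.3, 501 and 476 CPM, -0.20 (SE 0.037, adjusted p = 0.0014). TM7SF2 was at 63.5, 68.0 and 62.1 CPM and 53.0, 54.5 and 56.1 CPM, -0.24 (SE 0.060, adjusted p = 0.0272). The doses of these 3 genes did not overlap, but TM7SF2 lost its call in 5 of 6 fits that left out 1 library, all but that without Low replicate 3 (adjusted p up to 0.172, without Low replicate 2). Palmul-tang had 1 member lower, beside 0.516% of all tested genes called, 0.203% higher and 0.313% lower. It was LSS, at 228 and 237 CPM in its 2 Low libraries and 189 and 193 CPM in its 2 High ones, -0.28 (SE 0.053, adjusted p = 0.00165). LSS was not called without High replicate 2, -0.27 (adjusted p = 0.062), or Low replicate 3, -0.26 (adjusted p = 0.105), where the lone library is taken to vary like the other groups. Fitted on each formula's High and Low libraries alone, neither had a called member, beside 0.699% of all genes in Sibjeondaebo-tang and 0.292% in Palmul-tang. The summed biliary markers were higher at High in both, 916 to 951 against 737 to 779 CPM in Sibjeondaebo-tang and 933 to 965 against 738 to 768 CPM in Palmul-tang, and the leukocyte markers too, 1384 to 1498 against 1158 to 1346 and 1328 to 1442 against 1149.7 to 1228 CPM. The hepatocyte markers were lower, 60959 to 61631 against 63104 to 63904 and 59352 to 61421 against 62937 to 63706 CPM. The fibroblast and endothelium markers were lower in Palmul-tang, 68.3 to 68.7 against 73.7 to 74.1 and 2.58 to 2.79 against 3.15 to 3.72 CPM. In Sibjeondaebo-tang both of these lists overlapped between the doses. The part of all these markers was not tested. The dose effects of the formulas differed for 0 members by edgeR at an adjusted p under 0.05 and 0 by DESeq2, beside 0% of all genes called by edgeR. They differed for 3 members at edgeR's unadjusted p under 0.05, beside 4.22% of all genes. For LSS the difference was 0.056 with an interval of -0.083 to 0.20, and for TM7SF2 -0.060 with -0.25 to 0.13.

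At the middle dose members were called in Poria and Glycyrrhiza alone, most of them lower, and whether these 2 extracts differed there was not tested. Against their own Low, 17 members were lower and 1 higher at Poria Medium, 62.1% of the members, beside 15.5% of all tested genes called, 8.26% higher and 7.26% lower. At Glycyrrhiza Medium 12 were lower and none higher, 41.4% of the members, beside 3.5% of all tested genes called, 1.71% higher and 1.79% lower. High and Medium are compared with the same Low libraries, so their values are given side by side and their agreement is no result. At Glycyrrhiza Medium, LSS was at 193, 189 and 183 CPM, below every library at Low (243, 237 and 244 CPM) and at High (259, 251 and 279 CPM), with a Medium change of -0.36 (SE 0.043, adjusted p = 7.1e-08) beside 0.12 at High. DHCR7 changed by -0.18 (adjusted p = 0.0143) at Medium and 0.39 at High, TM7SF2 by -0.28 (adjusted p = 0.00181) and 0.14, and CYP51A1 by -0.16 (adjusted p = 0.0496) and 0.47. CYP51A1 was at 261, 266 and 269 CPM at Medium, under all Low and all High libraries. MVD, HMGCS1, ACAT2, MVK, HSD17B7, FDPS, FDFT1 and SQLE were the other members lower at Glycyrrhiza Medium, from -0.33 to -0.16. Of these 12 calls, 5 (ACAT2, HMGCS1, MVD, LSS and TM7SF2) held in every fit that left out 1 library, CYP51A1 (adjusted p up to 0.224) and SQLE (up to 0.0859) were lost in all 6, and without Medium replicate 3 the count was 6. DHCR7 was lost without Low replicate 1 or 3 or Medium replicate 3 (up to 0.139). HSD17B7 was lost without Medium replicate 1 or 3 or Low replicate 3 (up to 0.169), FDPS without Medium replicate 1 or 3 (up to 0.0736), FDFT1 without Low replicate 1 or Medium replicate 2 (up to 0.0704) and MVK without Medium replicate 3 (0.0697). At Glycyrrhiza Medium the summed hepatocyte markers were lower, 54035 to 55661 against 60703 to 61643 CPM at Low. So were the fibroblast markers, 54.6 to 58.5 against 65.4 to 69.6, while the biliary ones were higher, 919 to 1072 against 805 to 850.3. The leukocyte and endothelium lists and the mitochondrial share overlapped between these doses, and the part of any was not tested.

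In Poria most synthesis enzymes were lower at Medium as well. TM7SF2 changed by -0.76 (adjusted p = 4.22e-13) at Medium beside -1.09 at High, LSS by -0.55 (adjusted p = 2.77e-13) beside -0.63, EBP by -0.46 (adjusted p = 1.85e-06) beside -0.56, and MVD by -0.45 (adjusted p = 9.7e-06) beside -0.46. HMGCS1 was lower at Medium, -0.20 (adjusted p = 0.000116), and did not pass at High, -0.023. DHCR7 and IDI1 did likewise, at -0.17 and -0.19 for Medium. Whether High differed from Medium was not tested. NPC1 was the member that rose at Medium, by 0.32 (adjusted p = 1.2e-05), with 118, 129 and 130.4 CPM. SREBF2 was called lower at Poria Medium, -0.12 (adjusted p = 0.0415), but not without Medium replicate 1 or 2 or Low replicate 1 or 2 (adjusted p up to 0.17). IDI1 was not called without Low replicate 3, -0.14 (adjusted p = 0.07), nor DHCR7 without Medium replicate 1, -0.14 (adjusted p = 0.0729), nor MSMO1 without Medium replicate 1 or Low replicate 2 (adjusted p up to 0.0763). At Poria Medium the summed hepatocyte markers were 65094 to 69534 against 60856 to 64196 CPM at Low, and the leukocyte markers 1878 to 1924 against 1212 to 1328. The biliary markers were 722 to 796 against 636 to 712, and the fibroblast markers 52.7 to 53.6 against 68.3 to 72.3 CPM. None of these lists overlapped between the doses. The endothelium list and the mitochondrial share did, and the part of any was not tested. In Atractylodis, ginseng, Sibjeondaebo-tang and Palmul-tang, 0 members were called at Medium by edgeR and 0 by DESeq2, with 0%, 0%, 0.00614% and 0% of all genes called by edgeR. At an unadjusted p under 0.05 there were 4 members in Atractylodis, all lower, 0 in ginseng, 0 in Sibjeondaebo-tang and 1 in Palmul-tang. In the same order, 4.37%, 4.44%, 4.83% and 5.17% of all genes were under that unadjusted p.

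Against vehicle, most members called at High were lower, except in Glycyrrhiza, where as many were higher. Those called lower in each of the 6 replicated extracts were TM7SF2, PMVK, MVK, HMGCS1, ACAT2, IDI1, FDFT1 and NSDHL. These comparisons share the same 3 vehicle libraries, so that likeness between them is no result, and set code and treatment cannot be told apart in any of them. The share of all tested genes called follows each count in parentheses. At High 5 higher and 19 lower were called in Poria (51.3%: 25.8% higher and 25.5% lower), 1 higher and 18 lower in Atractylodis (33.9%: 16.8% higher and 17.1% lower), 1 higher and 16 lower in ginseng (36.3%: 17.8% higher and 18.5% lower), 3 higher and 14 lower in Sibjeondaebo-tang (34.3%: 17% higher and 17.3% lower), 0 higher and 15 lower in Palmul-tang (29.3%: 14.7% higher and 14.5% lower) and 10 higher and 10 lower in Glycyrrhiza (61.3%: 30.7% higher and 30.6% lower). TM7SF2 was at 81.9, 88.1 and 80.4 CPM in vehicle. Its change at High was -1.36 (SE 0.062, adjusted p = 2.15e-22) in Poria, -0.72 (adjusted p = 9.75e-13) in ginseng, -0.71 (adjusted p = 1.65e-12) in Atractylodis, -0.62 (adjusted p = 1.14e-10) in Sibjeondaebo-tang, -0.53 (adjusted p = 9.6e-08) in Palmul-tang and -0.25 (adjusted p = 0.000197) in Glycyrrhiza. LSS, at 268, 278 and 283 CPM in vehicle, changed by -0.83 in Poria, -0.54 in ginseng, -0.53 in Atractylodis, -0.53 in Palmul-tang and -0.47 in Sibjeondaebo-tang, all called, and was at -0.071 in Glycyrrhiza, not called. MVK ran from -0.54 in Poria to -0.33 in Glycyrrhiza, HMGCS1 from -0.47 in ginseng to -0.14 in Poria and NSDHL from -0.28 in Poria to -0.13 in Glycyrrhiza. ACAT2 ran from -0.48 in ginseng to -0.12 in Glycyrrhiza, IDI1 from -0.34 to -0.11 in the same extracts, and FDFT1 from -0.45 in ginseng to -0.17 in Palmul-tang. PMVK ran from -0.66 in ginseng to -0.29 in Glycyrrhiza. The calls of TM7SF2, MVK and HMGCS1 at High held whichever library was left out. In Glycyrrhiza ACAT2 was lost in 5 of 6 such fits, all but that without vehicle replicate 3 (adjusted p up to 0.238), and IDI1 and NSDHL without vehicle replicate 1 or High replicate 3 (up to 0.313 and 0.136). In Palmul-tang FDFT1 was lost without High replicate 3 (0.106) and NSDHL without vehicle replicate 1 or High replicate 2 (up to 0.507). PMVK kept this call in Poria and ginseng whichever library was left out. It was lost in Glycyrrhiza without vehicle replicate 1 or 2 or High replicate 1 or 2 (adjusted p up to 0.227), in Atractylodis without vehicle replicate 2 or High replicate 1 (up to 0.0917), in Sibjeondaebo-tang without High replicate 2 (0.0591) and in Palmul-tang without vehicle replicate 2 or High replicate 2 (up to 0.324).

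Members above vehicle at High numbered 10 in Glycyrrhiza and 5 in Poria. NPC1, at 102, 99.9 and 109 CPM in vehicle, was higher by 0.90 (adjusted p = 9.52e-20) in Glycyrrhiza and 0.56 (adjusted p = 1.96e-12) in Poria. Glycyrrhiza High also had NPC1L1 at 0.63 (adjusted p = 9.77e-15), CYP51A1 at 0.54 (adjusted p = 2.25e-13), SC5D at 0.53 (adjusted p = 7.55e-11) and SREBF2 at 0.41 (adjusted p = 1.08e-11), while HMGCS1 stayed below vehicle, -0.25 (adjusted p = 1.26e-07). INSIG2, at 45.4, 44.6 and 44.7 CPM in vehicle, was higher by 0.64 (adjusted p = 9.22e-06) in Poria, and ABCA1 by 0.30 (adjusted p = 0.000183). In Palmul-tang the High count of 15 dropped to 9 without High replicate 2. That library had a mitochondrial share of 24.8%, the highest of all libraries, beside 18.4% in the other High library and 13.4 to 15.2% in vehicle. The part of that share was not tested.

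At Low, 4 higher and 12 lower members were called against vehicle in Sibjeondaebo-tang (35.8%: 17.7% higher and 18.1% lower), 2 higher and 10 lower in ginseng (33.5%: 16.6% higher and 16.9% lower), 2 higher and 10 lower in Atractylodis (26.8%: 13.3% higher and 13.5% lower), 4 higher and 8 lower in Glycyrrhiza (29.9%: 14.6% higher and 15.3% lower), 2 higher and 8 lower in Palmul-tang (31%: 15.4% higher and 15.6% lower) and 0 higher and 6 lower in Poria (19.2%: 9.11% higher and 10.1% lower). TM7SF2, LSS, MVK, IDI1 and HMGCS1 were called lower in each of the 6, which again share the vehicle libraries: TM7SF2 from -0.39 in Glycyrrhiza to -0.27 in Poria, LSS from -0.25 in Palmul-tang to -0.17 in Atractylodis, MVK from -0.29 in Sibjeondaebo-tang to -0.15 in Poria, IDI1 from -0.20 in ginseng to -0.16 in Poria, and HMGCS1 from -0.16 in Palmul-tang to -0.10 in Sibjeondaebo-tang. TM7SF2 and LSS kept this call whichever library was left out. The other calls were lost without single libraries in some extracts. In Poria this held for HMGCS1 without vehicle replicate 1 or Low replicate 1 or 3 (adjusted p up to 0.124), MVK in all fits but that without Low replicate 3 (up to 0.195) and IDI1 without vehicle replicate 1 or Low replicate 1 or 2 (up to 0.183). In Atractylodis HMGCS1 and IDI1 were lost without vehicle replicate 1 or Low replicate 1 (up to 0.0912 and 0.0652), and MVK without vehicle replicate 2 or Low replicate 1 (up to 0.117). In Sibjeondaebo-tang HMGCS1 was lost without vehicle replicate 1 or any Low library (up to 0.223), in Glycyrrhiza IDI1 without vehicle replicate 1 (0.0564), and in Palmul-tang HMGCS1, MVK and IDI1 without Low replicate 3 (0.0806, 0.069 and 0.0892). ABCA1 was higher in 4 of the 6, at 0.27 in ginseng, 0.25 in Sibjeondaebo-tang, 0.23 in Glycyrrhiza and 0.20 in Atractylodis. SCAP was higher in 5, from 0.17 in ginseng to 0.11 in Glycyrrhiza. ABCA1 in Atractylodis was lost without vehicle replicate 1 or 2 or Low replicate 2 or 3 (adjusted p up to 0.186), and SCAP kept its call in every such fit in ginseng alone, with adjusted p-values up to 0.177 in Glycyrrhiza, 0.161 in Atractylodis, 0.0917 in Sibjeondaebo-tang and 0.178 in Palmul-tang. The mitochondrial share was 13.4 to 15.2% in vehicle and 17.7 to 21.3% at Sibjeondaebo-tang Low, and its part was not tested. These counts leaned on single libraries: 12 became 7 in Glycyrrhiza without vehicle replicate 1 or 2 or Low replicate 3, and 5 in Atractylodis without vehicle replicate 2 (6 without Low replicate 1). In Poria 6 became 3 without Low replicate 1 and 11 without Low replicate 3, in Sibjeondaebo-tang 16 became 9 without Low replicate 3, and in Palmul-tang 10 became 3 without Low replicate 3.

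Angelica and Paeonia have 1 library per dose, so their values are ratios with no test, and a gene is counted when it is past 1.5-fold. In the Paeonia High library, 8 of the 29 members were above its Low library, beside 18.3% of all genes past 1.5-fold in either direction, and none were below. INSIG2 was at 51.9 CPM at Low, 58.7 at Medium and 96.4 at High, a log2 ratio of 0.89 for High to Low. NPC1 was at 111, 117 and 200.3 CPM, a ratio of 0.85. DHCR7, TM7SF2, SC5D, STARD4, CYP51A1 and MVD followed, from 0.73 to 0.59. TM7SF2, which was called lower at High than at Low in 4 of the 6 replicated extracts, was at 60.3 CPM at Low and 98.4 CPM at High here. The median log2 ratio of the members was 0.36, beside -0.0016 for all genes. Relative to vehicle the median was 0.24 at High and -0.14 at Low. Mitochondrial genes held 22.7% of counts in the Low library, 15.7% at Medium and 20.1% at High. The summed leukocyte markers were at 2180 CPM at High and 1428 at Low, and the biliary ones at 946 and 761. The fibroblast markers were at 74.1 and 71.8, the hepatocyte at 60354 and 64940 and the endothelium at 2.79 and 3.61 CPM. The part of these in the ratios was not tested. Against the vehicle mean, 6 members were past 1.5-fold, all higher (NPC1, INSIG2, SC5D, STARD4, CYP51A1 and DHCR7), beside 20.8% of all genes.

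In the Angelica High library most members were below Low. MVD was at 163 CPM at Low, 142 at Medium and 103 at High, a log2 ratio of -0.65, and was the 1 member past 1.5-fold against Low, beside 9.13% of all genes. TM7SF2 followed at -0.55 and LSS at -0.40. The median of the members was -0.20. Against vehicle, MVD and TM7SF2 were past 1.5-fold, at -0.78 and -0.76, beside 11.6% of all genes, and LSS lay just inside, at -0.58. At Medium and at Low, 0 members of either herb were past 1.5-fold against vehicle.

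**Figure D4:**
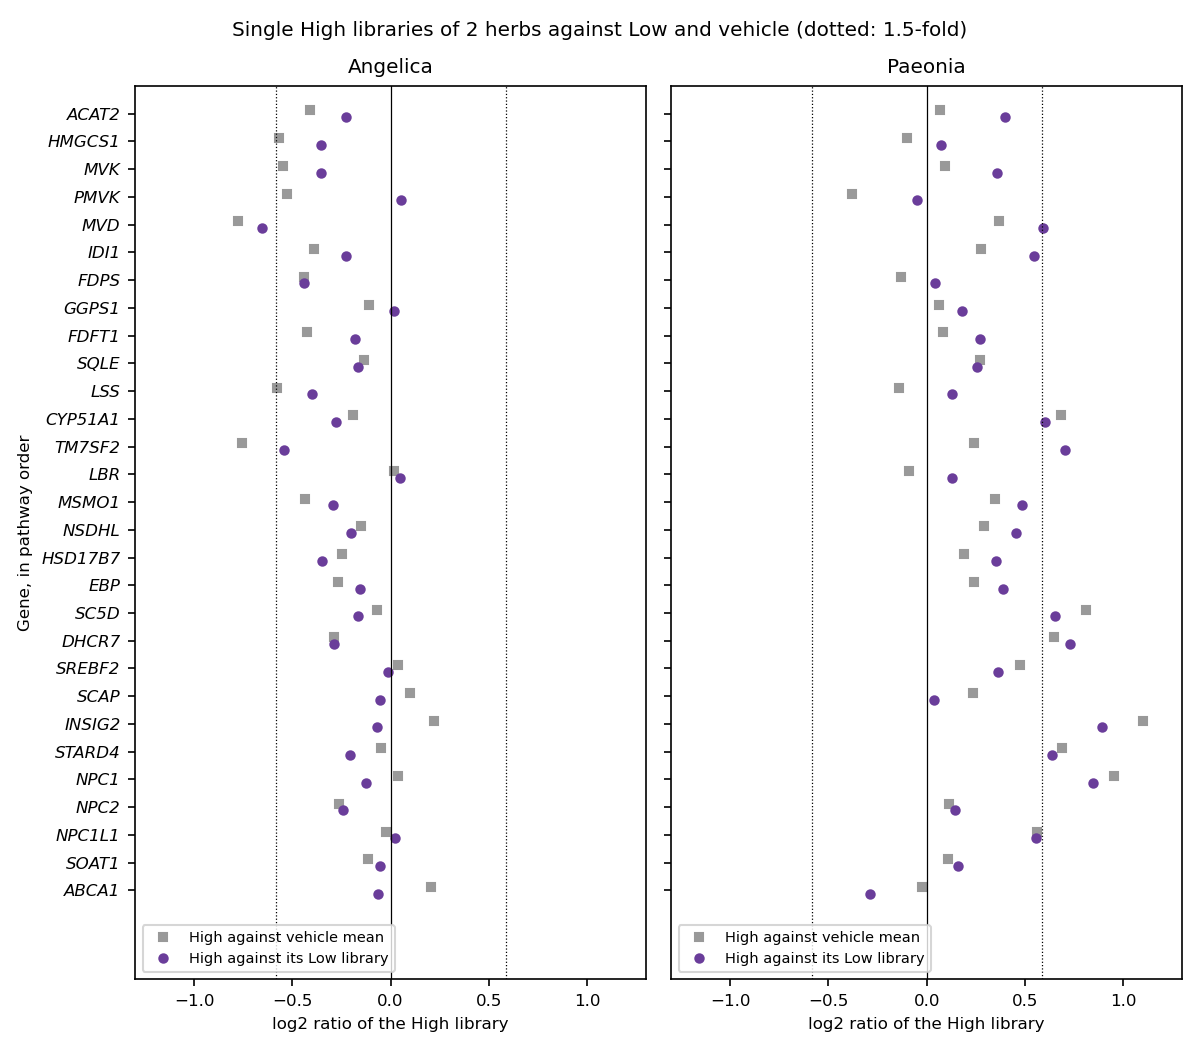
Log2 ratio of the single High library of Angelica (left) and Paeonia (right) to its own Low library (circles) and to the vehicle mean (squares) for the 29 tested members, with dotted lines at 1.5-fold. Most Angelica points lie left of 0 and most Paeonia circles right of it, 8 of them past the dotted line.

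Genes around the pathway were followed in 5 further lists. Their counts stand beside 56.3% of all tested genes called at Glycyrrhiza High (28.6% higher and 27.7% lower) and 38.5% at Poria High (20% higher and 18.4% lower), and a share near these is no result about a list. Among 9 genes that process SREBP or sense sterol in the endoplasmic reticulum, 6 rose and 2 fell at Glycyrrhiza High (88.9% called, median 0.27), with the largest changes in MBTPS2, a protease that cleaves SREBP, at 0.46 (adjusted p = 2.92e-09), and RNF145, a ubiquitin ligase that sterols direct, at -0.45 (adjusted p = 7.76e-09). At Poria High 3 rose and 1 fell (44.4% called, median 0.10). The 1 that fell was MBTPS2, -0.31 (adjusted p = 6.6e-05), and the 3 that rose are not named here. Of 14 genes that use farnesyl diphosphate for other products, 3 rose and 6 fell (64.3% called) in Glycyrrhiza, with FNTB, a subunit of protein farnesyltransferase, at -1.09 (adjusted p = 4.99e-19) and ICMT, which methylates prenylated proteins, at -0.59 (adjusted p = 9.47e-18). In Poria 7 rose and 3 fell (71.4% called), with DHDDS, an enzyme of dolichol synthesis, at 0.39 (adjusted p = 2.6e-08) and FNTA at 0.32 (adjusted p = 1.48e-06).

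Among 13 tested genes of sterol transfer, storage and hydrolysis, 5 rose and 4 fell (69.2% called) in Glycyrrhiza and 6 rose and 1 fell (53.8% called) in Poria. GRAMD1A, which carries cholesterol from the plasma membrane inward, rose in both, by 1.05 (adjusted p = 2.91e-19) and 0.75 (adjusted p = 1.06e-12), SCARB2, a lysosomal membrane protein, rose by 0.44 (adjusted p = 4.19e-10) in Glycyrrhiza, and TMEM97, a partner of NPC1, was lower in Poria, -0.62 (adjusted p = 7.46e-15). Of 9 tested LXR receptors and targets, 5 rose and 2 fell (77.8% called) in Glycyrrhiza, and 0 rose and 3 fell (33.3% called) in Poria. The paired sterol exporters ABCG5 and ABCG8 were at 0.60 (adjusted p = 9.46e-09) and -0.57 (adjusted p = 4.89e-07) in Glycyrrhiza and at -0.24 (adjusted p = 0.0274) and -0.54 (adjusted p = 1.11e-05) in Poria. These 2 genes overlap on opposite strands in the annotation, and the strand setting of the counting is not stated. Reads of the overlap cannot be told apart. Of 5 genes that supply electrons or scaffold the demethylation steps, 3 rose and 1 fell (80.0% called) in Glycyrrhiza, with POR, the reductase that feeds CYP51A1, at 0.75 (adjusted p = 3e-20) and CYB5B at -0.55 (adjusted p = 2.45e-09). In Poria 0 rose and 3 fell (60.0% called), with the scaffold ERG28 at -0.49 (adjusted p = 5.58e-08) and CYB5A at -0.18 (adjusted p = 0.0237). At Atractylodis High, in the order above, the 5 lists held 1, 3, 1, 2 and 2 calls, beside 6.42% of all tested genes. At ginseng High they held 2, 0, 2, 1 and 1, beside 5.66%.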

How the data were processed

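Total RNA of HepG2 cells went into mRNA libraries with a directional MGIEasy kit, per the labels' protocols. The authors deposited RSEM expected counts per Ensembl gene on GRCh38; per the submitters' processing notes the tools were FastQC 0.11.9, Trim Galore 0.6.5, STAR 2.7.3a and RSEM 1.3.3. Neither the gene annotation's release nor the counting's strand option is given in the sources used here. Expected counts share reads between overlapping or similar genes, and 23.4% of nonzero values were not whole (tolerance 0.005), so all were rounded. The table's other 210 columns, which matched no sample analysed here, were not used.

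Counts were scaled with TMM and fitted with edgeR 4.0.16 (R 4.3.3) in a quasi-likelihood model over the 54 libraries of the 19 groups with replicates, after filterByExpr (16286 genes). CPM uses the TMM-scaled library size, and SE is the log2 change over the root of F. The 6 Angelica and Paeonia libraries gave log2 ratios with a prior count of 2. The members and lists were chosen with earlier results of these data known. By rule, libraries are listed for up to 4 called members with the largest change in each High against Low comparison, and for the SREBP2 loop and exporters in Glycyrrhiza and Poria; other genes with listed libraries were added after their values were seen. Up to 2 genes were named from each companion list for Glycyrrhiza and up to 2 for Poria. Alternatives were DESeq2 1.42.0, RLE scaling, mitochondrial genes left out, no filter, only the compared groups, a replicate block and each library left out.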

Additional observations from a re-analysis of the deposited data

Results flagged for a closer look

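The results below are those where the High against Low change of 1 extract differed from that of another by the test of the difference itself (edgeR's quasi-likelihood test, adjusted p under 0.05) for a member. Between Poria and Glycyrrhiza 19 members differed. The members called in both extracts with opposite signs had differences (Poria minus Glycyrrhiza, log2) of -0.62 for MVD, -0.75 for LSS, -0.60 for CYP51A1, -1.22 for TM7SF2, -0.48 for MSMO1, -0.53 for SREBF2 and 0.85 for INSIG2. Between Poria and Atractylodis 9 members differed. Between Glycyrrhiza and ginseng 20 differed, and those called with opposite signs had differences (Glycyrrhiza minus ginseng) of 0.43 for MVD, 0.47 for LSS, 0.65 for CYP51A1, 0.53 for TM7SF2, 0.50 for MSMO1, 0.64 for DHCR7 and 0.50 for SREBF2. The calls of MVD, LSS and TM7SF2 in Glycyrrhiza itself were lost without its High replicate 3 (adjusted p = 0.437, 0.148 and 0.246), those of CYP51A1 and MSMO1 in Poria without its High replicate 1 or Low replicate 2 (up to 0.179 and 0.145), and those of MVD, CYP51A1 and MSMO1 in ginseng in 3 or 4 of 6 fits that left out 1 library (up to 0.116, 0.119 and 0.152) and of SREBF2 there in all 6 (up to 0.135). CYP51A1 in Poria was also lost without Low replicate 3. The differences given above for members called with opposite signs were called whichever library was left out.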

How the results depend on the processing

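Of 34 counts of members called, 25 were above 0, and 18 of those stayed within 1.5 times under every alternative other than leaving out a library. The other 9 were 0 and stayed 0, which says nothing about stability. None of the 325 called gene changes, nor ABCA1 in Poria High against Low, which was not called, reversed its sign under any alternative. The next counts come from fits on only the groups compared, each followed by the share of all genes called in that fit. The count was 7 for Atractylodis High against Low (2.3%), 0 for Sibjeondaebo-tang (0.699%) and 0 for Palmul-tang (0.292%). It was 11 for Poria Medium against Low (5.89%), 1 for Poria Low against vehicle (6.99%) and 5 for Poria minus Atractylodis (12%). Such fits have fewer samples. DESeq2 called 3 members at Palmul-tang High against Low, beside 1.04% of all genes. Against the mean of the replicated extracts' Low libraries, 0 members of the Angelica High library were past 1.5-fold, beside 6.21% of all genes. Of the 325 called changes, 6 lost the call with DESeq2, 10 with RLE scaling, 2 without mitochondrial genes, 36 with no filter and 43 with only the groups compared; the cause was not tested.

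With each library left out in turn, the count ran from 7 to 10 for ginseng High against Low, 0 to 1 for Palmul-tang High against Low, 6 to 10 for Glycyrrhiza Medium against Low and 9 to 15 for Palmul-tang High against vehicle. For Low against vehicle it ran from 7 to 11 in Glycyrrhiza, 3 to 11 in Poria, 5 to 10 in Atractylodis, 9 to 14 in Sibjeondaebo-tang and 3 to 11 in Palmul-tang.

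Replicate numbers recur across groups, and the labels do not say whether same-numbered libraries belong together. They did not deviate together in every pair of any comparison, which does not show that they are unpaired. In Atractylodis the correlations were 0.076 to 0.137 for High against Low and 0.035 to 0.130 for Medium against Low. In both, every High or Medium library correlated best with the Low library of its own number. That is a hint from the data and not from the design, and both comparisons use the same Low libraries. With the replicate block the count for ginseng High against vehicle was 21, beside 36.9% of all genes, and no call was lost in any comparison. A block within the set code was chosen after seeing the data, and the share of all genes called in that fit follows each count. It gave 5 members at Sibjeondaebo-tang High against Low (1.48%) and 3 at Palmul-tang (0.755%). It gave 17 in Atractylodis (7.73%) and 16 in ginseng (7%), where the main fit gave 14 and 13. In Glycyrrhiza (57.1%) and in Poria (39.7%) it gave 18, as in the main fit.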
